A study of Mus musculus with 12 samples.

Results

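The mitochondrial respiratory chain and ATP synthase were followed through the nuclear genes of their subunits in mouse mammary tumours with and without the protein kinase Hunk. The members are the probe sets whose single platform gene symbol begins with Nduf, Uqcr, Cox4i, Cox5, Cox6, Cox7, Cox8 or Atp5, or is Sdha, Sdhb, Sdhc, Sdhd, Cyc1 or Cycs. They comprise 160 of the 22690 probe sets and 86 of the 12393 genes with 1 symbol, and the probe set with the greatest mean signal across the 12 arrays stood for each gene. All tumours came from female FVB mice carrying an MMTV-c-myc transgene, in which a mouse mammary tumour virus promoter expresses c-myc, and all mice had been mated before tumour watch. In the 6 Hunk KO samples a pGKneo cassette stood in place of the putative Hunk promoter and exon 1, an allele made in E14 embryonic stem cells from 129/Sv sequence, and the 6 Hunk WT samples were wild type at Hunk. The labels give neither the age of the mice nor whether each array held a separate tumour, so the p-values measure the spread between these samples, which may be partly technical.

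Oxidative phosphorylation passes electrons from NADH and succinate through complexes I to IV to oxygen, and the proton gradient so built drives complex V, the ATP synthase. Complex I oxidises NADH, complex II oxidises succinate, complex III hands electrons to cytochrome c, and complex IV reduces oxygen. Most subunits are encoded in the nucleus, and several come as isoforms used in particular tissues. Probe sets for the mitochondrially encoded subunits fall outside the rule and were not analysed here.

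The arrays carried log2 GCRMA signals with medians from 3.87 to 4.10, and precision is limited by how many arrays each group has. Hunk itself lay between 2.60 and 3.06 in the knockout and between 2.99 and 5.53 in the wild type, with wild-type array 6 inside the knockout range. The labelled tissue carried the luminal keratin Krt18 and 5 other epithelial markers above background on every array. An array's background was taken as its brightest Bacillus spike-in probe set. Hunk was below this background on every knockout array and on wild-type arrays 4 and 6. Knockout arrays 2 and 3 stood apart in other cell types: the mean of the 5 white adipocyte markers was 6.63 on knockout array 2 and that of the 14 skeletal muscle markers was 7.18 on knockout array 3. On the other 11 arrays these means lay between 3.25 and 5.17 and between 2.85 and 4.44. The 5 brown adipocyte markers had means of 4.65 and 4.21 on knockout arrays 2 and 6 and of 2.45 to 2.73 on the others. On all arrays 1 of the muscle, 2 of the white and 2 of the brown adipocyte markers were at background. The 6 macrophage markers had means of 6.38, 6.49 and 6.43 on knockout arrays 2, 4 and 5 and of 6.66 to 7.52 on the other 9 arrays. The 6 fibroblast markers, 3 of them at background throughout, had means of 6.87 and 6.78 on knockout arrays 4 and 5 and of 5.81 to 6.66 on the other 10. Only genes above a filter on low values were tested: 6 epithelial, 2 white adipocyte, 0 brown adipocyte, 4 muscle, 6 macrophage and 3 fibroblast markers. None of them passed, and the other markers of these lists were not tested. Knockout arrays 4 and 5 were the closest of the 30 pairs of arrays within a genotype, with an SD of 0.33 for the log2 difference between them over the tested genes against 0.54 for the next pair, and they were counted as separate samples. With them averaged 125 genes passed in place of 228, Ndufv3 kept its call and Cox4i1 lost it (adjusted p = 0.0808 by limma). In these bulk samples fewer cells of a type and less RNA per cell cannot be told apart. For RNA quality, the excess of the 3′ over the 5′ probe set of the beta-actin control was read. It lay between 1.26 and 1.72 in the knockout and between 1.21 and 1.34 in the wild type. Only knockout array 1 lay within the wild-type range, and the other knockout arrays were above every wild-type array. The excess thus nearly followed genotype, and a fit with both cannot fully separate them. With it as a covariate, 79.2% of tested members had a positive log2 change and their median was 0.25. For all genes tested these values were 47.0% and -0.02. Of the members only Cox7a2l passed in that fit, and Ndufv3 and Cox4i1 did not.

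The comparison of knockout with wild type showed a small upward difference over many subunits and few that passed the test. Many members moved together by array, so they are not separate observations of genotype, and the comparison rests on 6 arrays against 6. The mean deviation of the tested members from their 12-array means overlapped between groups. It ran from -0.19 to 0.32 in the knockout and from -0.16 to 0.01 in the wild type. Ndufv3, an accessory subunit at the NADH-oxidising end of complex I, and Cox4i1, the common isoform of complex IV subunit 4, rose in the knockout. No member fell. Of the 86 members, 77 passed the filter on low values, with 2 higher, 0 lower and 75 not past the threshold (limma, Benjamini-Hochberg adjusted p under 0.05 over 6825 genes). Over all genes tested 3.34% passed, 1.66% as higher and 1.68% as lower. The members' 2.60% is near that background, and so the count of calls is no result about them. At an unadjusted limma p under 0.05, 15 of the 77 tested members were higher and 1 lower, where 612 of the 6825 genes were higher (8.97%) and 720 lower (10.5%). In either direction this was 20.8% of members and 19.5% of all genes, so the shares differed by direction and little in total.

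Positive changes outnumbered negative ones. Of the 77 tested members 55 had a positive log2 change, 71.4%, against 50.8% of all genes tested, and the median change was 0.18 against 0.01. The changes were small: 50 members lay within 1.2-fold, 25 were above it, 2 were below it and 0 differed more than 2-fold. Of all 6825 genes tested 1213 lay above 1.2-fold and 1583 below. The median standard error of a member's change was 0.16 on the log2 scale. On simulated data the test recovered 16% of log2 changes of 0.5, so a change of that size would mostly not pass. Centring each array on the median of its tested genes added 0.05 to every change. The array medians of 3.87 to 4.10 given above are over all probe sets and were not used for centring. The share of all genes with a positive change depended on the filter: without it 67.2% of all genes and 73.3% of the 86 members were positive, with medians of 0.04 and 0.15. With the filter at the 75th percentile 43.9% of all genes and 70.3% of the 74 members tested were positive, with medians of -0.05 and 0.17.

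**Figure D1:**
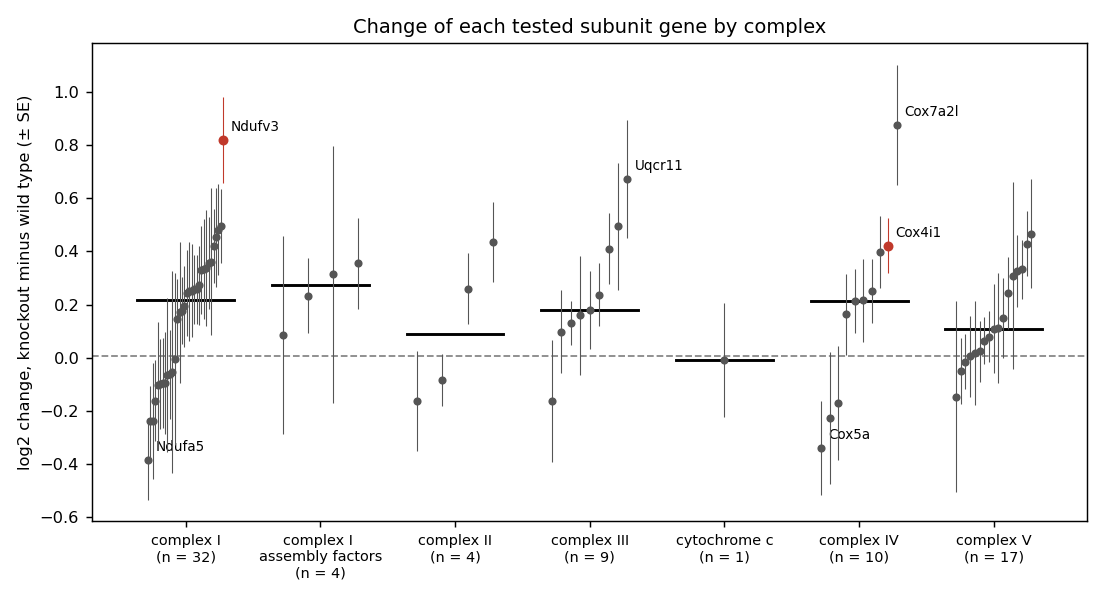
Log2 change (knockout minus wild type, with its standard error) of each of the 77 tested members, grouped by complex and ordered within it. Thick lines are the complex medians, from -0.01 for cytochrome c to 0.27 for the complex I assembly factors, the dashed line is the median of all genes tested (0.01), and the members past the threshold, Ndufv3 and Cox4i1, are in red.

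Complex I had 33 member genes besides its assembly factors, of which 32 were tested, and their median log2 change was 0.22 with 20 positive and 12 negative. The 6 measured core subunits, those with counterparts in the bacterial enzyme, all had positive changes. These are Ndufv1, Ndufv2, Ndufs1, Ndufs3, Ndufs7 and Ndufs8, which carry the flavin, the iron-sulphur clusters or the contact to ubiquinone. Their changes ran from 0.24 to 0.45 with a median of 0.34, and none passed the test. The 26 tested accessory subunits were split, with 14 positive, 12 negative and a median of 0.16.

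Ndufv3 was the complex I gene that rose. Its signal had a lowest, median and highest value of 9.07, 9.66 and 9.79 in the knockout and of 8.38, 8.64 and 9.13 in the wild type. In 5 of 6 knockout samples it was above every wild-type sample, and only knockout array 5 lay within the wild-type range. The log2 change was 0.82 (SE 0.16), or 1.77-fold, with an adjusted p of 0.0222 by limma. It kept its call in 11 of 12 fits that left out 1 array, the exception being wild-type array 4 (adjusted p = 0.0554). With this beta-actin excess as a covariate the change was 0.92 and the adjusted p 0.0863, and with knockout arrays 2 and 3 both left out 0.76 and 0.0831.

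Ndufa1, a small subunit of the membrane arm, did not pass, but its groups did not overlap. Its values were 9.997, 10.33 and 10.69 in the knockout (lowest, median, highest) and 9.53, 9.91 and 9.97 in the wild type, a log2 change of 0.50 (SE 0.14, adjusted p = 0.0771 by limma). Groups were apart in 3 tested members, Ndufa1, Cox4i1 and Atp5d, or 3.90%, where 3.15% of all genes tested were apart (1.71% higher and 1.44% lower), so this count too is near the background. Ndufa5, an accessory subunit of the peripheral arm, had the most negative change of all members. It lay at 9.57, 10.09 and 10.27 in the knockout and 10.05, 10.44 and 10.67 in the wild type, with a change of -0.39 (SE 0.15, adjusted p = 0.172 by limma). The next lowest of complex I, Ndufa12, had a change of -0.24 (SE 0.13). Ndufs8, which holds iron-sulphur clusters and had the highest mean of the complex I probe sets, stood at 0.36 (SE 0.17, adjusted p = 0.279 by limma), and its 6 probe sets, 1 of them below the filter, were all positive.

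**Figure D2:**
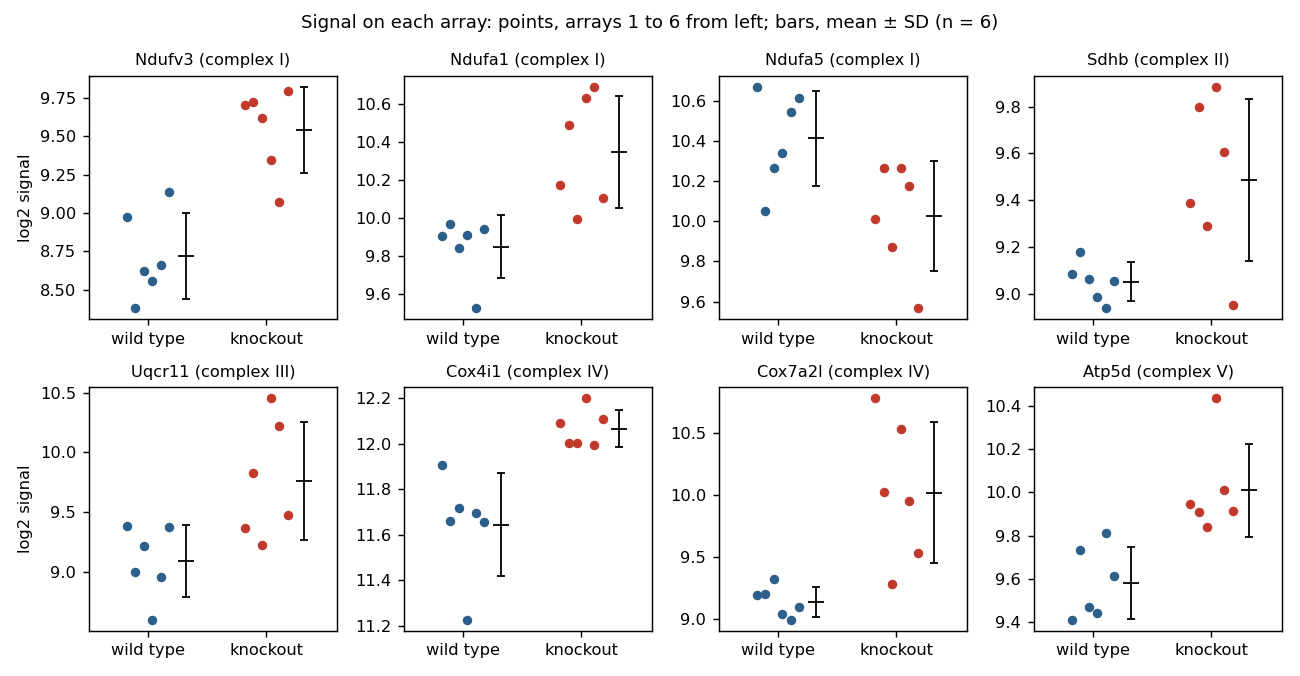
Log2 signal on each array for 8 members; points are arrays 1 to 6 from left to right within a group, and bars give the mean and SD of 6 arrays. The groups are apart for Ndufa1, Cox4i1 and Atp5d, and overlap for the others. Knockout array 3 is the lowest of its group for Ndufa1, Uqcr11, Cox7a2l and Atp5d.

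Ndufv1, the subunit that binds NADH and the flavin, gave different sizes from its 3 probe sets. The naming rule does not cover it, and it was picked with its values in view, for the widest disagreement between probe sets of any member. The probe set of highest mean, 1415967_at, gave 0.42 on the log2 scale (SE 0.14, adjusted p = 0.134 by limma over 11313 probe sets). The probe set 1415966_a_at read 8.91, 9.57 and 10.01 in the knockout and 6.85, 8.27 and 8.76 in the wild type, lowest, median and highest. It had a change of 1.34 (SE 0.32, adjusted p = 0.0484 by limma), and 1456015_x_at one of 0.94 (SE 0.18, adjusted p = 0.0192 by limma). For both of these all 6 knockout samples lay above all 6 wild-type samples. All 3 probe sets lay above array background on every array, and the x_at type of probe set can match related transcripts. Had the mean of all probe sets stood for each gene, Ndufv1 would have passed at 0.90 on the log2 scale. Which transcripts each probe set reads was not checked here.

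Over all members, 138 of the 160 probe sets passed the filter and 4 rose (0 fell), namely these 2 of Ndufv1, that of Ndufv3 and 1 of Cox7a2l. Of all 11313 probe sets tested 1.18% rose and 2.46% passed in either direction. Among 41 genes with more than 1 tested probe set, the signs agreed in 33 and were mixed in 8, Cycs, Uqcrb, Ndufab1, Uqcrc2, Ndufb6, Sdhd, Ndufa7 and Atp5j2.

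**Figure D3:**
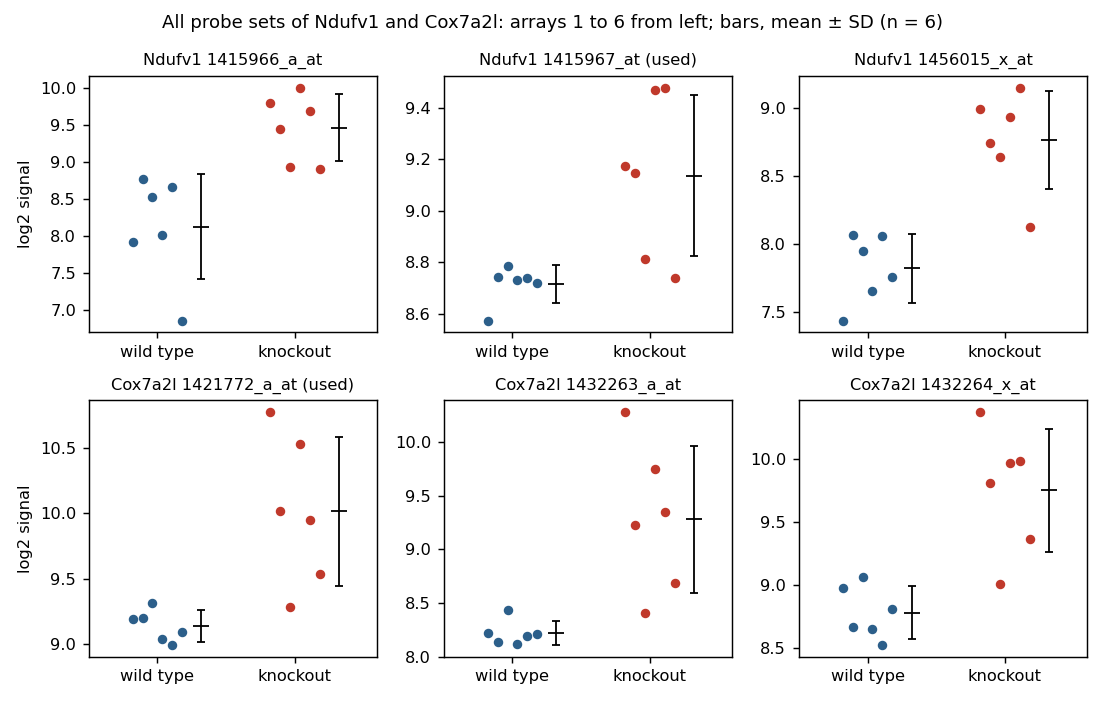
Log2 signal on each array for the 3 probe sets of Ndufv1 (upper row) and the 3 of Cox7a2l (lower row), with the probe set used marked; points are arrays 1 to 6 from left to right and bars the mean and SD of 6 arrays. The 2 unused Ndufv1 probe sets are apart between groups, with changes of 1.34 and 0.94 against 0.42, and the Cox7a2l probe sets have changes of 0.88, 1.06 and 0.97 with a wide spread in the knockout.

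Of the 5 measured complex I assembly factors, proteins that help build the complex without staying in it, 4 were tested. All 4 changes were positive, with a median of 0.27 (0.14 without knockout array 5), and none passed. Ndufaf7, a mitochondrial methyltransferase, stood at 0.36 (SE 0.17, adjusted p = 0.277 by limma) and Ndufaf1 at 0.31 (SE 0.48), or -0.13 without wild-type array 6. Ndufaf4, the factor with the highest mean, stood at 0.09 (SE 0.37), and at -0.21 without wild-type array 5. Ndufaf3 was at background on every array.

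In complex II, which also serves the citrate cycle as succinate dehydrogenase, the subunits divided by position. The catalytic pair, the flavoprotein Sdha and the iron-sulphur protein Sdhb, had positive changes, and the membrane anchors Sdhc and Sdhd negative ones. Sdhb read 8.95, 9.50 and 9.88 in the knockout and 8.94, 9.06 and 9.18 in the wild type, with 5 of 6 knockout samples above all wild-type samples. Its change was 0.44 (SE 0.15) and that of Sdha 0.26 (SE 0.14), against -0.08 (SE 0.10) for Sdhc and -0.16 (SE 0.19) for Sdhd. None of the 4 passed (limma adjusted p = 0.138 for Sdhb and 0.306 for Sdha), and the difference between the pairs was not tested. The median of the 4 was 0.088, 0.059 without knockout array 4 and 0.051 without wild-type array 2. The second probe set of Sdhd gave a change of 0.00.

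Complex III had 9 members, all tested, of which 8 had positive changes with a median of 0.18, and none passed. Uqcr11, its smallest subunit, had the largest: 9.23, 9.65 and 10.45 in the knockout against 8.60, 9.11 and 9.38 in the wild type. The change was 0.67 (SE 0.22, adjusted p = 0.126 by limma), with 4 knockout samples above all wild-type samples and knockout arrays 1 and 3 within the wild-type range. Uqcrq, a small membrane subunit beside cytochrome b, stood at 0.49 (SE 0.24). Uqcrc1, a core protein of the matrix side, stood at 0.41 (SE 0.13). Its partner core protein Uqcrc2, the member of highest mean, stood at -0.16 (SE 0.23). Cytochrome c1, Cyc1, and the Rieske iron-sulphur protein, Uqcrfs1, which carry the electrons, stood at 0.16 and 0.24. The naming rule does not cover Uqcrc1, Cyc1 and Uqcrfs1, which were picked with their values in view. The median of the complex was 0.40 with the beta-actin covariate and 0.28 without knockout array 3.

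Cycs, the mobile carrier cytochrome c, read 10.41, 11.21 and 11.84 in the knockout and 10.89, 11.10 and 11.56 in the wild type. Its change of -0.01 (SE 0.21) had a 95% interval from -0.47 to 0.45, so a moderate difference in either direction could not be seen with these arrays. Knockout array 2 was the highest and knockout array 3 the lowest of all 12, and without the latter the change was 0.14.

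Complex IV had 17 members, of which 10 were tested, 7 of them with positive changes and a median of 0.21. Cox4i1, the subunit through which ATP is known to regulate the complex, was the gene that rose. It read 11.995, 12.05 and 12.20 in the knockout and 11.23, 11.68 and 11.91 in the wild type. All 6 knockout samples were above all 6 wild-type samples, and the knockout samples spread less (SD 0.08) than the wild-type ones (SD 0.22). The change was 0.42 (SE 0.10), or 1.34-fold, with an adjusted p of 0.0486 by limma. The call stood at the threshold: it held in 1 of 12 fits that left out 1 array, that without wild-type array 1 (adjusted p = 0.0346). In the other 11 the adjusted p lay between 0.0676 and 0.0958.

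Cox7a2l, a relative of subunit 7a that joins complexes III and IV into supercomplexes, had the largest change of any member and did not pass. It read 9.28, 9.98 and 10.77 in the knockout and 8.99, 9.14 and 9.32 in the wild type. Of the knockout samples 5 were above all wild-type samples and knockout array 3 was within their range. The knockout samples spread widely (SD 0.57) and the wild-type ones little (SD 0.12). The change was 0.88 (SE 0.22), or 1.84-fold, with an adjusted p of 0.0558 by limma. It passed in 1 of 12 fits that left out 1 array, that without knockout array 3 (1.02, limma adjusted p = 0.0261). Of 12 other settings it passed in 7. Among these were knockout arrays 2 and 3 left out (1.06, adjusted p = 0.0414) and the beta-actin covariate (1.49, adjusted p = 0.0226).

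The other subunits of complex IV were mixed. Cox5a, a subunit on the matrix side, read 10.93, 11.07 and 11.75 in the knockout and 11.28, 11.39 and 12.18 in the wild type, and 5 of 6 knockout samples were below all wild-type samples. Its change was -0.34 (SE 0.18, adjusted p = 0.307 by limma), and its 3 probe sets were all negative. Cox8a, a small membrane subunit, stood at 0.40 (SE 0.14, adjusted p = 0.134 by limma). Cox6b1, on the side of cytochrome c, stood at 0.25 (SE 0.12), Cox6a1 at 0.21 (SE 0.12; -0.054 with the beta-actin covariate) and Cox7a2 at 0.16 (SE 0.15). Ndufa4, named for complex I but a subunit of complex IV, stood at -0.23 (SE 0.25).

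The isoforms kept for particular tissues were at or near background. Cox4i2, the lung and hypoxia isoform, lay between 2.48 and 3.40 over all 12 arrays. The testis isoforms Cox6b2 and Cox8c and the heart and skeletal muscle isoform Cox6a2 were also at background on every array. The muscle isoforms Cox7a1 and Cox8b exceeded background on 3 and 2 of 12 arrays. Cox8b reached 4.14 on knockout array 2, where adipocyte markers were high and the background was 3.65, and lay between 3.43 and 3.75 on the other arrays. Its value on knockout array 3, where muscle markers were high, was 3.75, under that array's background of 4.00. Cox6a2 read 1.95 on knockout array 3, also under background, and no more than 1.63 elsewhere. Whether those cell types gave these signals was not tested. Cox7c and Ndufb1 also lay below the filter on low values. Cox7c was above background on all 12 arrays, with means of 3.90 in the knockout and 3.82 in the wild type. Its second probe set exceeded background on only 2 knockout and 3 wild-type arrays. Signals this near background say little about the level of Cox7c. Ndufb1 was at background on every array, which says only that its probe set gave no usable signal.

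Complex V had 17 members, all tested, of which 14 had positive changes with a median of 0.11, and none passed. The 5 subunits of the catalytic F1 head and its central stalk had a median of 0.31, and the 12 of the peripheral stalk and membrane part one of 0.09. Their changes overlapped widely, from -0.02 to 0.43 and from -0.15 to 0.47, and the difference between the parts was not tested. The median of the complex was 0.044 without knockout array 2, 0.064 without wild-type array 2, 0.071 without wild-type array 5 and 0.073 without knockout array 4. Atp5d, the delta subunit of the central stalk, read 9.84, 9.93 and 10.43 in the knockout and 9.41, 9.54 and 9.81 in the wild type. The groups did not overlap, and the change was 0.43 (SE 0.12, adjusted p = 0.0788 by limma). The second Atp5d probe set gave 0.42, also without overlap. The catalytic beta subunit, Atp5b, had the highest mean of the complex and a change of 0.06 (SE 0.09), with a 95% interval from -0.13 to 0.26. Atp5l, subunit g of the membrane part, stood at 0.47 (SE 0.21, adjusted p = 0.235 by limma).

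The proton-carrying c subunit is encoded by 3 genes whose mature proteins are the same. Atp5g1 stood at 0.11 (SE 0.17), Atp5g2 at -0.15 (SE 0.36) and Atp5g3 at -0.05 (SE 0.13). Atp5g2 varied most, from 9.61 to 11.40 in the knockout and from 9.35 to 11.13 in the wild type, so its groups overlapped over nearly the whole range, and its change was 0.63 with the beta-actin covariate. The genes Atp5j and Atp5o, peripheral stalk subunits, lie within 10 Mb of Hunk in the RefSeq gene table, a stretch that can come from the 129/Sv source of the targeted allele. Atp5j stood at 0.08 (SE 0.10, adjusted p = 0.659 by limma). Atp5o read 10.29, 10.63 and 10.95 in the knockout and 10.02, 10.32 and 10.50 in the wild type, a change of 0.33 (SE 0.13, adjusted p = 0.206 by limma).

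The mean level of the members differed between arrays of 1 genotype as well as between genotypes. The mean deviation of the tested members from their 12-array means was 0.32, 0.23, 0.15 and 0.12 on knockout arrays 2, 4, 5 and 1. On knockout arrays 6 and 3 it was -0.14 and -0.19. The wild-type arrays lay between -0.16 and 0.01, so the groups overlapped and knockout array 3 was the lowest of all 12. On knockout array 2, 70 of 77 members were above their own mean, on knockout array 6 20, and on the wild-type arrays between 19 and 39. Knockout array 4 was the highest array for 20 members and knockout array 2 for 17, while knockout array 3 was the lowest for 19.

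The order of the knockout arrays was much the same in complexes I, III, IV and V, with array 2, 4 and then 1 or 5 above 0 and arrays 3 and 6 below it. In complex II arrays 2 and 4 stood at 0.32 and 0.24 and the other 4 between -0.07 and -0.04. The knockout samples also spread more than the wild-type samples in 54 of 77 members, 70.1%, against 57.6% of all genes tested. The median change was 0.15 without knockout array 2, 0.24 without knockout array 3 and 0.20 without both, the arrays with adipocyte and muscle markers. Knockout arrays 2, 4 and 5, on which the members were highest, were also those with the lowest macrophage markers, and arrays 4 and 5 had the highest fibroblast markers. Other arrays did not follow this order. Knockout array 1, with a member deviation of 0.12, had the highest macrophage mean of all 12 arrays (7.52). Knockout array 3, the lowest for the members, had the next highest fibroblast mean (6.66). The part of these cell types in the members' levels was not tested.

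**Figure D4:**
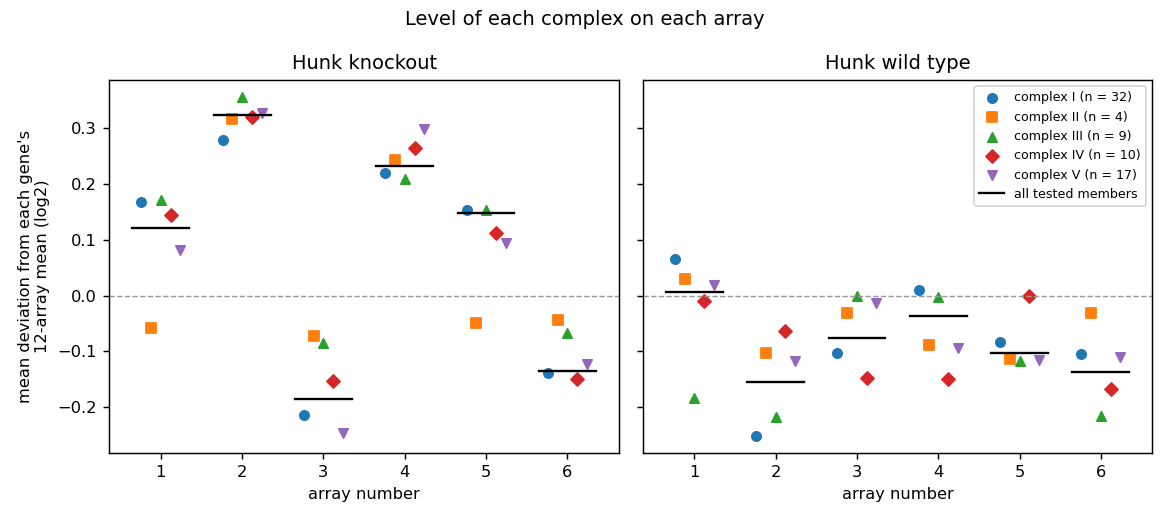
Mean deviation of the tested members of each complex from each gene's 12-array mean (log2), by array, with black lines giving all 77 tested members. Knockout arrays 1, 2, 4 and 5 lie above 0 in complexes I, III, IV and V, knockout arrays 3 and 6 lie below 0, and the wild-type means over all members lie between -0.16 and 0.01.

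Other genes of mitochondrial energy metabolism were read from lists apart from the members, and 0 of their tested genes passed in either direction, where 3.34% of all genes did. At an unadjusted p under 0.05 they held 16 higher and 8 lower genes of 141 tested, or 17.0% in all, where all genes gave 19.5% (8.97% higher and 10.5% lower), so this count is near the background. Of 20 tested genes of the citrate cycle and pyruvate dehydrogenase 15 had positive changes, with a median of 0.13, and of 15 carriers, uncouplers and cristae proteins 11, with a median of 0.25. Of 24 further assembly factors 14 were positive, with a median of 0.06. The proteins of the mitochondrial ribosome, which makes the mitochondrially encoded subunits, went the other way, with 27 of 72 positive and a median of -0.08. Of 10 regulators of mitochondrial gene expression 3 were positive, with a median of -0.15.

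The genes nearest the threshold in these lists are named after their values were seen. Pdhb, the beta subunit of pyruvate dehydrogenase, read 8.99, 9.25 and 9.57 in the knockout and 8.55, 8.81 and 8.94 in the wild type, a change of 0.49 (SE 0.12, adjusted p = 0.052 by limma) with no overlap. Higd1a, a hypoxia-induced protein that binds complex IV, had a change of 0.93 (SE 0.24, adjusted p = 0.057 by limma). Tfam, which packages and transcribes mitochondrial DNA, read 7.09, 7.51 and 7.93 in the knockout and 7.87, 8.24 and 8.67 in the wild type. Its change was -0.73 (SE 0.19, adjusted p = 0.0609 by limma), opposite in sign to that of most subunits.

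**Figure D5:**
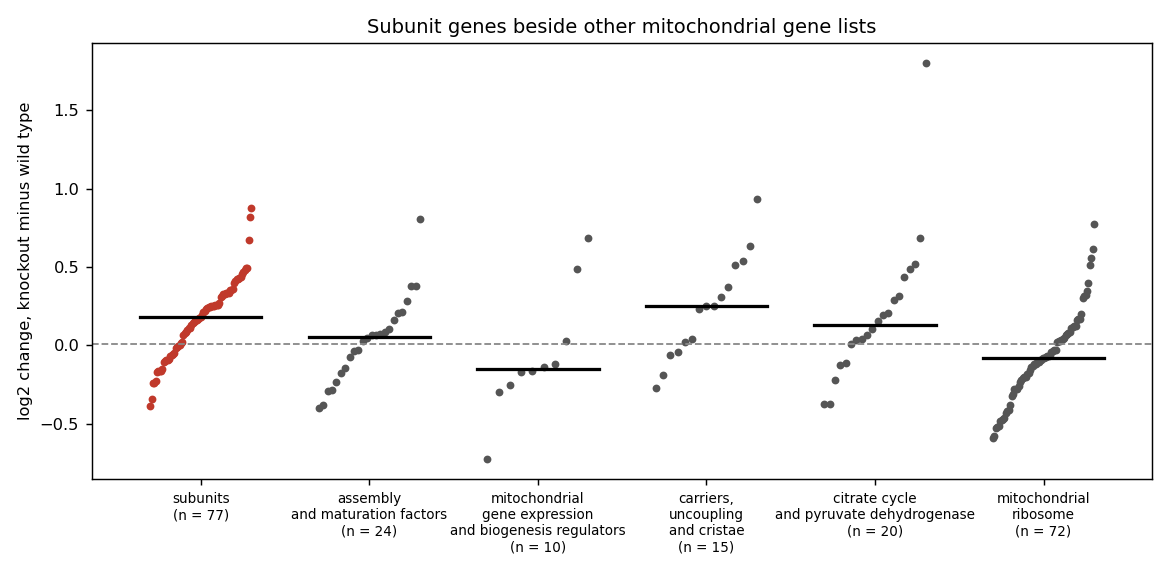
Log2 change (knockout minus wild type) of the 77 tested members, in red, beside the tested genes of 5 other mitochondrial lists, with thick lines for the medians and a dashed line for all genes tested (0.01). The subunit median is 0.18, that of the mitochondrial ribosome -0.08 and that of the gene expression regulators -0.15.

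Motifs of regulators known to act on subunit genes were counted. The stretch of 250 bases before the annotated start was searched in the RefSeq promoter table (GRCm38.p6), which matched 71 of the 86 members in 76 windows. The motifs were those of NRF1, GABPA (CCGGAAG), YY1 (AAGATGGC) and the E-box that binds Myc (CACGTG), on both strands, and overlaps between motifs were not removed. The NRF1 motif stood in 15.8% of member windows and 3.74% of all 32851 windows, the GABPA motif in 17.1% and 6.91%, the E-box in 9.21% and 6.02%, and the YY1 motif in 1.32% and 1.56%. The 11 tested members with an NRF1 motif had a median log2 change of -0.01, and the 54 without it one of 0.23. For GABPA the medians were 0.24 with and 0.17 without, and for the E-box 0.06 with and 0.21 without. These medians are descriptions, and a match of letters is not a site of binding.

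The windows of 4 members are printed 5′ to 3′ on the gene's strand, with matches in capitals. Cox7a2l had the largest change and no match, at chr17:83514334-83514583 on the minus strand. Ndufv1, the member whose probe sets differed most in the size of their change, had an E-box, at chr19:4012756-4013005 on the minus strand. Uqcr11, the largest change of complex III, had a GABPA motif, at chr10:80406822-80407071 on the minus strand. Cox6a1, the complex IV subunit of highest mean, had 2 NRF1 motifs and 1 GABPA motif, at chr5:115348959-115349208 on the minus strand.
Cox7a2l: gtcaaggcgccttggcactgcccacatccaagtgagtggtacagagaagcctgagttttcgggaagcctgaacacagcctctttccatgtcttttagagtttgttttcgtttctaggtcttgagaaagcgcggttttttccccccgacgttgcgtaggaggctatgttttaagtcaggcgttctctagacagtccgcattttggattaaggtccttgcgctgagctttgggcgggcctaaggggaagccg
Ndufv1: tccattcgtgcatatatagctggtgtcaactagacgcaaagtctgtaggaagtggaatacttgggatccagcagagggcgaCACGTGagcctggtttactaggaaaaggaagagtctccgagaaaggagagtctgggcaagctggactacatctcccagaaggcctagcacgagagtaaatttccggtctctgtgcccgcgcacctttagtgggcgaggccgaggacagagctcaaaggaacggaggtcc
Uqcr11: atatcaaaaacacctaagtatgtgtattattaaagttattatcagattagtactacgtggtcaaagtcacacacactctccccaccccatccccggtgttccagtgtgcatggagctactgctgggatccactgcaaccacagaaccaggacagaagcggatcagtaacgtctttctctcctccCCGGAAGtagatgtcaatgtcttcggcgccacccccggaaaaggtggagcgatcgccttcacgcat
Cox6a1: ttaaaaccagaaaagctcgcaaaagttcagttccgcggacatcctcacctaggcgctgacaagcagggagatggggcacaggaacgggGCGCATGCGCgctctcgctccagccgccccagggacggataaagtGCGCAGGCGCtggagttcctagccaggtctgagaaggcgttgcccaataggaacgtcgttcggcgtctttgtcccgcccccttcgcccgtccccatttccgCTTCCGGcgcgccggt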

How the data were processed

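Total RNA of 12 tumour samples was read on Affymetrix arrays, 6 per genotype. The authors deposited log2 signals per probe set made with GCRMA, per the submitters' processing notes, which corrects background by probe sequence and normalizes between arrays; its version, the genome build and the annotation are not given in the sources used here. No further scaling was applied to them. Of 22690 probe sets, 64 control probe sets were left out, and 20380 had 1 symbol in the platform annotation, 691 had several and 1606, some of the controls among them, had none. All 86 member symbols were found in the RefSeq gene table (GRCm38.p6), with 0 changed. Another 8 probe sets with several symbols carry a member prefix and were not named.

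Genes with a mean above the median probe set (3.98) were tested with limma 3.58.1 in R 4.3.3 (lmFit, eBayes with trend, genotype as the only term), and p-values were adjusted by Benjamini-Hochberg over 6825 genes at 0.05. Intervals are the model's 95% intervals. The test was checked on simulated data with the means and SDs of these genes. It recovered 16% of log2 changes of 0.5, 80% of changes of 1, 74% of changes of -1 and 92% of changes of 2, with 4 false calls. Background on an array was the highest of its Bacillus control probe sets (mean 3.71 in the knockout, 3.60 in the wild type). Genes were named by a rule: those past the threshold, in each complex the 2 most positive, the 2 most negative and the one of highest mean, isoforms of particular tissues and their counterparts, members within 10 Mb of Hunk, and the top marker of each list. The members, lists and rule were chosen with earlier results of these data known, and the lists are no independent support. Alternatives covered the filter, eBayes settings, normalization, array weights, the choice of probe set, a replicate block, a beta-actin covariate, averaging knockout arrays 4 and 5, the closest pair, and leaving out arrays.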

Additional observations from a re-analysis of the deposited data

Results flagged for a closer look

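Among the named members 13 groups of 6 arrays held 1 array far from the other 5, out of 76 groups checked. Far means a gap above 0.625 of the group's range, which about 1 in 20 groups of independent normal values would show. The members share arrays and some lie at background, and the share over all genes was not counted. The count of 13 is therefore no result about the members. In the wild type, Cox4i1 read 11.23 on array 4 against 11.66 to 11.91 on the others, and without that array no member passed. Ndufaf1 read 3.32 on wild-type array 6 against 5.52 to 6.55. Cox5a read 12.18 on wild-type array 2 against 11.28 to 11.58.

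Wild-type array 5 stood apart for 4 members. On it Ndufa1 read 9.53 against 9.84 to 9.97, Atp5j 10.48 against 10.55 to 10.59, Ndufaf4 6.41 against 7.82 to 8.64, and Cox8a 8.78, the only one of the 4 that was high, against 8.29 to 8.44. In the knockout, Atp5d read 10.43 on array 4 against 9.84 to 10.01, and Sdha 8.34 on array 5 against 8.73 to 8.93.

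The remaining such values were those of isoforms of particular tissues. Cox8b read 4.14 on knockout array 2 against 3.57 to 3.75, and the mean of the 5 brown adipocyte markers was 4.65 on that array. Cox6a2 read 1.95 on knockout array 3 against 1.57 to 1.62, with the muscle markers at 7.18 there. Cox4i2 read 3.11 on knockout array 2 against 2.65 to 2.75 and 3.40 on wild-type array 2 against 2.48 to 2.70. The Cox6a2 and Cox4i2 values lie below the array background, and the part of other cell types in these values was not tested.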

How the results depend on the processing

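The number of members that rose (2) was 1 without the filter on low values, with eBayes without trend or with robust fitting, with the beta-actin covariate and with knockout arrays 4 and 5 averaged, 4 with median centring and with the mean of all probe sets, 9 with array weights and 5 at an adjusted p under 0.10. It was 1 with knockout arrays 2 and 3 left out, an alternative chosen after seeing the data. Leaving out 1 array gave 0 to 2, with 0 without wild-type array 4. With the filter at the 75th percentile it was 3 and with quantile normalization 2. Calls over all genes, 228 or 3.34% in the fit reported, were 0.904% without the filter, 5.03% at the 75th percentile, 3.27% without trend, 3.33% robust, 3.44% with quantile normalization, 3.62% with centring, 5.71% with array weights, 3.5% with the mean of probe sets, 1.05% with the covariate, 1.83% with arrays 4 and 5 averaged, 1.77% without knockout arrays 2 and 3, 6.78% at 0.10 and 1.39% without wild-type array 4, so that 5 of 77 at 0.10 is near its background. The cause was not tested. No setting gave a member that fell. With the replicate number as a block 0 members rose (69 genes in all); same-numbered arrays correlated between -0.04 and 0.14, so the numbers were not read as pairs. The median change of complex III was 0.40 with the covariate; under all settings the other complex medians moved by less than the spread between arrays. Without 1 array the median was 0.15 to 0.24 over all members, 0.16 to 0.26 in complex I, 0.14 to 0.34 in its assembly factors, 0.051 to 0.13 in complex II, 0.17 to 0.28 in complex III, 0.16 to 0.28 in complex IV and 0.044 to 0.15 in complex V. The sign turned for 6 named members. Cycs was 0.022 with quantile normalization and with array weights, 0.038 with centring, 0.10 with the mean of probe sets, 0.30 with the covariate and -0.15 to 0.14 without 1 array. Atp5g2 was 0.63 with the covariate, 0.073 without knockout arrays 2 and 3 and -0.38 to 0.0081 without 1 array. Atp5g3 was 0.0058 with knockout arrays 4 and 5 averaged and -0.12 to 0.019 without 1 array. Cox6a1 was -0.054 with the covariate. Ndufaf1 was -0.13 to 0.52 without 1 array. Ndufaf4 was -0.23 with the covariate, -0.093 without knockout arrays 2 and 3 and -0.21 to 0.25 without 1 array. Signal over background limits the 9 members below the filter.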
